A study of Mus musculus with 42 samples.

Results

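The 10 genes described here encode enzymes of the tricarboxylic acid (TCA) cycle: Cs, Idh1, Idh2, Idh3a, Idh3b, Ogdh, Suclg1, Fh1, Mdh1 and Mdh2. They were chosen by name and all 10 were found among the 15737 genes whose symbol is listed once in the deposited RNA-seq table. RNA-seq was performed on 18 samples of ICR mouse embryos in 9 groups, with 2 libraries of 3 embryos each per group. Early 2-cell embryos were collected 34 h after injection of human chorionic gonadotropin (hCG), late 2-cell embryos at 48 h and 4-cell embryos at 58 h, all labelled wild type. Late 2-cell embryos were controls labelled untreated, or were cultured with 0.01 µM FK866, with FK866 and 10 µM NMN, or with 10 nM TSA, or were Sirt1 knockdown embryos. The 4-cell embryos were controls, or were cultured with FK866, or with FK866 and NMN. FK866 inhibits NAMPT, the enzyme that rebuilds NAD+ from nicotinamide, NMN is the product of NAMPT and so bypasses the block, and TSA inhibits class I and II histone deacetylases. By the study's methods the knockdown combined siRNA against Sirt1 with an antibody to SIRT1 and Trim21 mRNA, injected into zygotes. Its negative control there was an injection of scrambled siRNA with Trim21 mRNA, and drug controls received DMSO. No RNA-seq group is labelled as an injected control. Knockdown and injection therefore cannot be told apart where knockdown embryos are compared with late 2-cell controls. The 24 H3K27ac samples of the series were not analysed here.

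In the TCA cycle, citrate synthase joins acetyl-CoA to oxaloacetate, isocitrate and 2-oxoglutarate are oxidised with release of carbon dioxide, and succinate, fumarate and malate lead back to oxaloacetate. Several of its steps reduce NAD+ to NADH, so the cycle draws on the cofactor that FK866 depletes. Mouse zygotes and cleavage embryos are known to depend on pyruvate and lactate before they can use glucose, and components of the cycle have been described in the nucleus of 2-cell embryos. Idh1 and Mdh1 encode cytosolic enzymes that carry out the reactions of their mitochondrial counterparts Idh2 and Mdh2 outside the mitochondrion.

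The table holds FPKM, a read count scaled to exon length and library size, with 1 column per group. In 7 columns the value of a gene was the sum of 2 libraries, which could be separated because the reads of each library must be whole numbers, and 2 columns held 1 library. Library totals ranged from 3169677 to 10003481 reads, and 96.77% to 97.79% of the values above 0 in a column were separated. Within a column, A denotes the deeper library and B the shallower one, and neither carries a replicate number. Levels below are FPKM per library, so that levels of different genes are compared per length. Reads are given where they are few, since a count of 0 allows up to 3 reads by counting error alone.

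Column headers and the gene tables of the paper disagreed for 5 of the 9 columns, so these are called by their headers. Of the values listed in those tables for 4-cell controls, 84 of 84 were equal to the column headed late-2-cell-TSA. Likewise 84 of 84 for 4-cell FK866 were equal to the column headed late-2-cell-Sirt1, and 84 of 84 for 4-cell FK866 with NMN to the column headed 4-cell-con. The early 2-cell column has no values listed there. For the late 2-cell control, FK866 and FK866 with NMN, 117, 118 and 117 of 118 listed values matched the columns of those names. No values are listed for TSA or the knockdown, only directions. The TSA directions, of which only part of the list was held here, matched the column headed 4-cell-FK866 in 1203 of 1203 genes, and the next column, early 2-cell, in 1096. The knockdown directions matched the column headed 4-cell-FK866-NMN in 773 of 821 genes and the late 2-cell FK866 column in 703, so this assignment is the least certain. Both of those columns held 1 library.

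Markers of stage separated the columns in the same manner. The summed level of 8 genes of the 2-cell stage (6 Zscan4 genes, Zfp352 and Duxf3) was 169.8 FPKM in early 2-cell embryos and 334.1 to 468.9 in the late 2-cell control, FK866 and FK866 with NMN columns. It was 12.6, 28.3 and 39.7 in the columns headed late-2-cell-TSA, late-2-cell-Sirt1 and 4-cell-con, and 244 and 334.1 in the 1-library columns, headed 4-cell-FK866 in the first case and 4-cell-FK866-NMN in the other. All 5 measured oocyte markers summed to between 32.1 and 348.7 FPKM, highest in early 2-cell embryos. The 5 measured markers of cumulus and granulosa cells, which surround the oocyte, summed to at most 8.12, with Ptx3 and Foxl2 at 0 in 8 of 9 columns each. That highest sum, in the library headed 4-cell-FK866, came from Cyp19a1 alone. So did the 2.91 in the library headed 4-cell-FK866-NMN, and Ptx3, Ptgs2, Tnfaip6 and Foxl2 were at 0 in both. Sirt1, the targeted gene, was at 86.6 and 66.2 FPKM in the 2 control libraries, and at 32.4 and 73.1 in those headed late-2-cell-Sirt1. The libraries of FK866, FK866 with NMN, and the columns headed late-2-cell-TSA and 4-cell-con lay between 53.3 and 92.3. It was at 7.61 in the library headed 4-cell-FK866 and at 11.3 in that headed 4-cell-FK866-NMN, close to the 13.5 and 6.18 of early 2-cell embryos. Thus the stage markers went against the stage in the headers of the TSA, Sirt1 and both 1-library columns, and every direction drawn from the 5 columns is given by header and by the tables.

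Sequence upstream of 3 members whose mRNA level differed between stages is shown. The period sampled takes in the mid-to-late 2-cell stage, where the paper places the major activation of the embryonic genome. Promoter windows came from RefSeq on GRCm38.p6, where 9 of the 10 members have one. The printed part of each is the stretch of the window before the outermost start of the gene in GENCODE M21. Capitals mark a GC box (GGGCGG), found in the Mdh2 stretch only.
Idh3b, chr2:130284548-130284701, minus strand: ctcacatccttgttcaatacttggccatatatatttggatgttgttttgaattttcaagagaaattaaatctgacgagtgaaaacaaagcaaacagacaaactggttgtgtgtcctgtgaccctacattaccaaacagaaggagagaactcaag
Suclg1, chr6:73248255-73248381, plus strand: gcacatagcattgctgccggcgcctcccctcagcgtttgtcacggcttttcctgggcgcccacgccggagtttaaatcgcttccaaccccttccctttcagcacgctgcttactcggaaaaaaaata
Mdh2, chr5:135778399-135778479, plus strand: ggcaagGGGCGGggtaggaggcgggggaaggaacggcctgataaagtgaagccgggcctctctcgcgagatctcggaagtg
The GC content of these stretches was 37% for Idh3b, 55.9% for Suclg1 and 65.4% for Mdh2. Over the full 250 bases before each RefSeq start, searched on both strands, a CCAAT box (CCAAT) was present for 7 of the 9 members, against 33.8% of 32851 windows of all genes. Here and below a member counts if any of its windows held the motif, while the shares are per window, with 27025 genes behind all windows. A GC box was also present for 7 of the 9, against 32.7% of all windows, and a TATA box (TATAAA) for 0 of the 9, against 12.4%. The cAMP response element TGACGTCA was found for Mdh2 and Ogdh, against 1.55% of windows, the NRF1 core GCATGCGC for Ogdh, against 2.26%, and the ETS motif CCGGAAGT for none, against 2.88%. These are matches of letters, with no measure of binding in these data.

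The first step is run by citrate synthase, the product of Cs (chromosome 10, 128337734 to 128362479, plus strand). Cs had the highest level of the 10 members in 6 of the 9 columns, and between 93.8% and 97.38% of all genes lay below the highest member of a column. Early 2-cell libraries had 122.4 and 65.7 FPKM and late 2-cell control libraries 108.7 and 69.9. Levels were 66.7 and 77.2 with FK866, and 106.1 and 34.9 with FK866 and NMN. The libraries of these 4 columns overlapped. The libraries of the columns headed late-2-cell-TSA, at 28.7 and 25.0, and 4-cell-con, at 54.6 and 32.5, lay below both control libraries, those headed late-2-cell-Sirt1, at 73.0 and 36.9, overlapped with them, and the 1-library columns had 94.8 (headed 4-cell-FK866) and 64.0 (headed 4-cell-FK866-NMN). Cs passed the test in no comparison.

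Isocitrate is oxidised by 2 kinds of enzyme, the NAD+-dependent mitochondrial complex IDH3 and the NADP+-dependent enzymes IDH1 and IDH2. Idh3a (chromosome 9, 54586334 to 54604661, plus strand) encodes the catalytic subunit of IDH3 and Idh3b (chromosome 2, 130279309 to 130284547, minus strand) another of its subunits. Idh3a was at 13.0 and 27.4 FPKM in early 2-cell embryos, 8.49 and 23.6 in late 2-cell controls, and 10.2 and 19.2 with FK866. With FK866 and NMN it was at 23.4 in library A, from 1005 reads, and at 0 in library B. Levels in the columns headed late-2-cell-TSA (1.50 and 1.21), late-2-cell-Sirt1 (2.42 and 7.46) and 4-cell-con (6.77 and 1.19) all lay below those of both control libraries. The 1-library columns were at 29.5 and 20.4, within or above the range of the controls.

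Idh3b followed another pattern. It was at 1.24 and 1.76 FPKM in early 2-cell embryos, 5.42 and 4.00 in late 2-cell controls and 2.58 and 4.74 with FK866. No read of Idh3b was found in either library with FK866 and NMN, nor in the single libraries of the columns that hold 1, where 3 reads would be at most 0.187 FPKM. By contrast, the columns headed late-2-cell-TSA (37.0 and 24.8), late-2-cell-Sirt1 (25.8 and 23.7) and 4-cell-con (24.9 and 22.7) stood above every other library. Idh3b shares 5 of its 3422 exon bases with Nop56 on the other strand. In the same libraries Idh3b was 76% to 96.1% of the summed FPKM of both subunits, against 6.04% to 39% in the libraries of the early 2-cell, control and FK866 columns and 0% in the 3 other libraries that had any read of either gene.

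**Figure D1:**
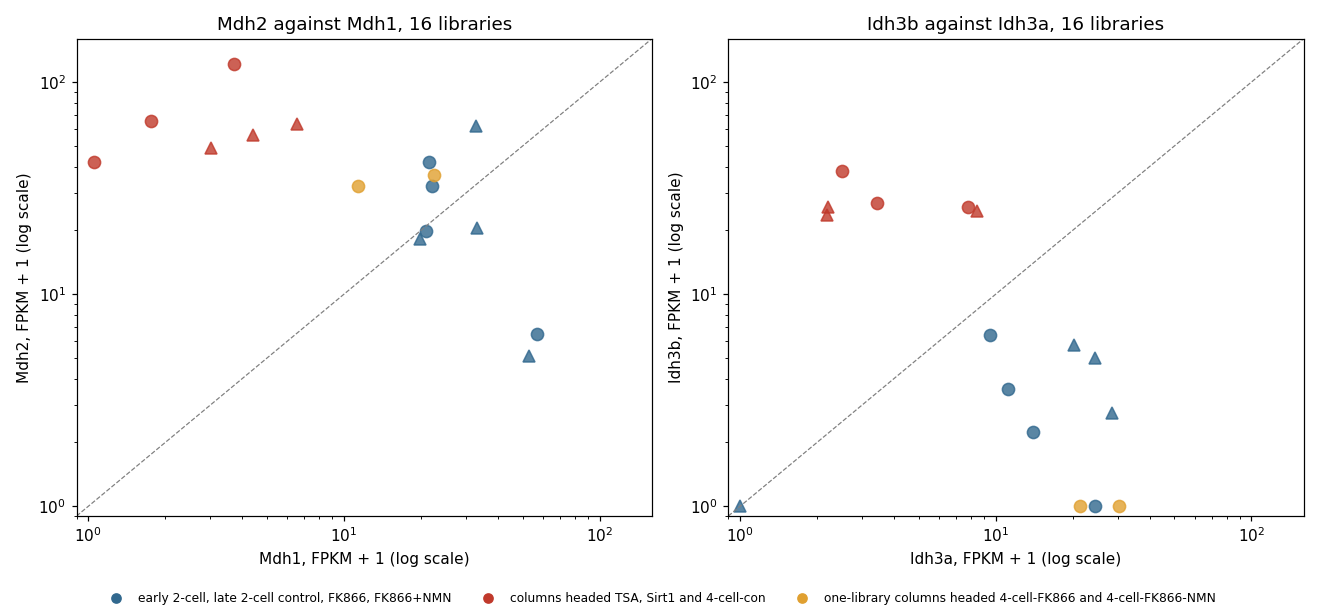
FPKM + 1 of Mdh2 against Mdh1 (left) and of Idh3b against Idh3a (right) on log axes, 1 point per separated library, circles for library A and triangles for B, with the dashed line at equal levels. The 6 libraries of the columns headed TSA, Sirt1 and 4-cell-con lie above the line in both panels, with Mdh2 at 40.8 to 121.2 FPKM and Idh3b at 22.7 to 37.0.

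Idh1 (chromosome 1, 65158616 to 65186500, minus strand) and Idh2 (chromosome 7, 80094846 to 80115392, minus strand) were low and uneven between libraries. Idh1 was at 25.0 and 7.38 FPKM in early 2-cell embryos. Late 2-cell controls had 1 read in library A and 78 in library B, and FK866 embryos 200 and 1, so each column mean came from 1 library. Idh1 was at 7.08 and 8.43 with FK866 and NMN. It was at 9.27 and 7.91 in the column headed late-2-cell-TSA, 2.92 and 10.4 in that headed late-2-cell-Sirt1, and 2.37 and 5.36 in that headed 4-cell-con. The library headed 4-cell-FK866 had 36 reads, 2.77 FPKM, and that headed 4-cell-FK866-NMN none. Idh2 had no read in early 2-cell embryos or with FK866 and NMN, 1 and 10 reads in controls, 1 and 42 with FK866, and 0 and 5 in the column headed late-2-cell-TSA. Its higher levels were 14.3 FPKM in library B headed late-2-cell-Sirt1, against 1.74 in A, 6.70 in library A headed 4-cell-con, against 0.333 in B, and 6.60 and 4.03 in the 1-library columns. The order of the columns for Idh1 and Idh2 was therefore not resolved from the spread within columns.

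Ogdh (chromosome 11, 6291633 to 6356642, plus strand) encodes the dehydrogenase subunit of the 2-oxoglutarate complex. It was at 4.78 and 8.33 FPKM in early 2-cell embryos, 12.3 and 3.92 in controls, 6.38 and 11.3 with FK866, and 3.33 and 1.64 with FK866 and NMN. The column headed late-2-cell-TSA had 1 read in library A and 341 in library B. Levels were 15.0 and 7.05 in the column headed late-2-cell-Sirt1 and 10.9 and 15.6 in that headed 4-cell-con. The 1-library columns were far apart, with 0.939 for 4-cell-FK866 and 18.3 for 4-cell-FK866-NMN.

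Suclg1 (chromosome 6, 73248382 to 73276911, plus strand) encodes the alpha subunit of succinyl-CoA ligase, which makes succinate and a nucleoside triphosphate. The gene was detected in both early 2-cell libraries, with 214 and 163 reads or 8.22 and 7.60 FPKM. Only 5 and 3 reads were left in the control libraries, 4 and 3 with FK866, and 13 and 12 with FK866 and NMN. Levels of 5.31 and 6.04 were found in the column headed late-2-cell-TSA, 7.92 and 4.24 in that headed late-2-cell-Sirt1, and 5.93 and 5.13 in that headed 4-cell-con. All 6 of these libraries lay above every late 2-cell control, FK866, and FK866 with NMN library, of which the highest was at 0.486. The library headed 4-cell-FK866 had 23 reads, 1.06 FPKM, and that headed 4-cell-FK866-NMN 9 reads.

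Fh1 (chromosome 1, 175600374 to 175625635, minus strand) encodes fumarase, which hydrates fumarate to malate. It was at 33.9 and 55.5 FPKM in early 2-cell embryos, 10.4 and 4.81 in controls, and 12.4 and 5.29 with FK866. With FK866 and NMN library A had 1460 reads, 50.8 FPKM, and library B none. In the column headed late-2-cell-TSA 1 read was found over both libraries, and the columns headed late-2-cell-Sirt1 (10.0 and 1.12) and 4-cell-con (2.15 and 0.762) had uneven low levels. The library headed 4-cell-FK866 was at 13.0 and that headed 4-cell-FK866-NMN at 0.171, from 4 reads.

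Malate is oxidised to oxaloacetate by malate dehydrogenase, cytosolic from Mdh1 (chromosome 11, 21556787 to 21572367, minus strand) and mitochondrial from Mdh2 (chromosome 5, 135778480 to 135790398, plus strand). Mdh1 was at 56.0 and 52.0 FPKM in early 2-cell embryos, 20.4 and 18.8 in controls, 21.1 and 32.2 with FK866, and 19.9 and 31.8 with FK866 and NMN. It was at 0.0548 and 2.01 in the column headed late-2-cell-TSA, 2.70 and 5.57 in that headed late-2-cell-Sirt1, and 0.755 and 3.40 in that headed 4-cell-con. The 1-library columns had 21.4 (headed 4-cell-FK866) and 10.3 (headed 4-cell-FK866-NMN). Mdh1 shares 52 of its 2567 exon bases with Wdpcp on the other strand, and its reads were whole numbers only with an exon length of 2662 bases, which was used.

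Mdh2 took the opposite course. It was at 5.53 and 4.11 FPKM in early 2-cell embryos, 40.8 and 17.3 in controls, 31.5 and 19.5 with FK866, and 18.9 and 61.0 with FK866 and NMN. The columns headed late-2-cell-TSA (40.8 and 47.7), late-2-cell-Sirt1 (121.2 and 62.5) and 4-cell-con (64.8 and 55.1) had the highest column means, and the 1-library columns were at 35.6 and 31.3. Mdh2 made up 7.32% and 8.99% of the summed FPKM of both genes in early 2-cell libraries. This share was 37.7% to 66.6% in the late 2-cell control, FK866, and FK866 with NMN libraries, 62.4% and 75.2% in the 1-library columns, and 91.8% to 99.9% in the 6 libraries headed late-2-cell-TSA, late-2-cell-Sirt1 and 4-cell-con. The 4 ranges did not overlap other than those of the late 2-cell and 1-library columns.

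**Figure D2:**
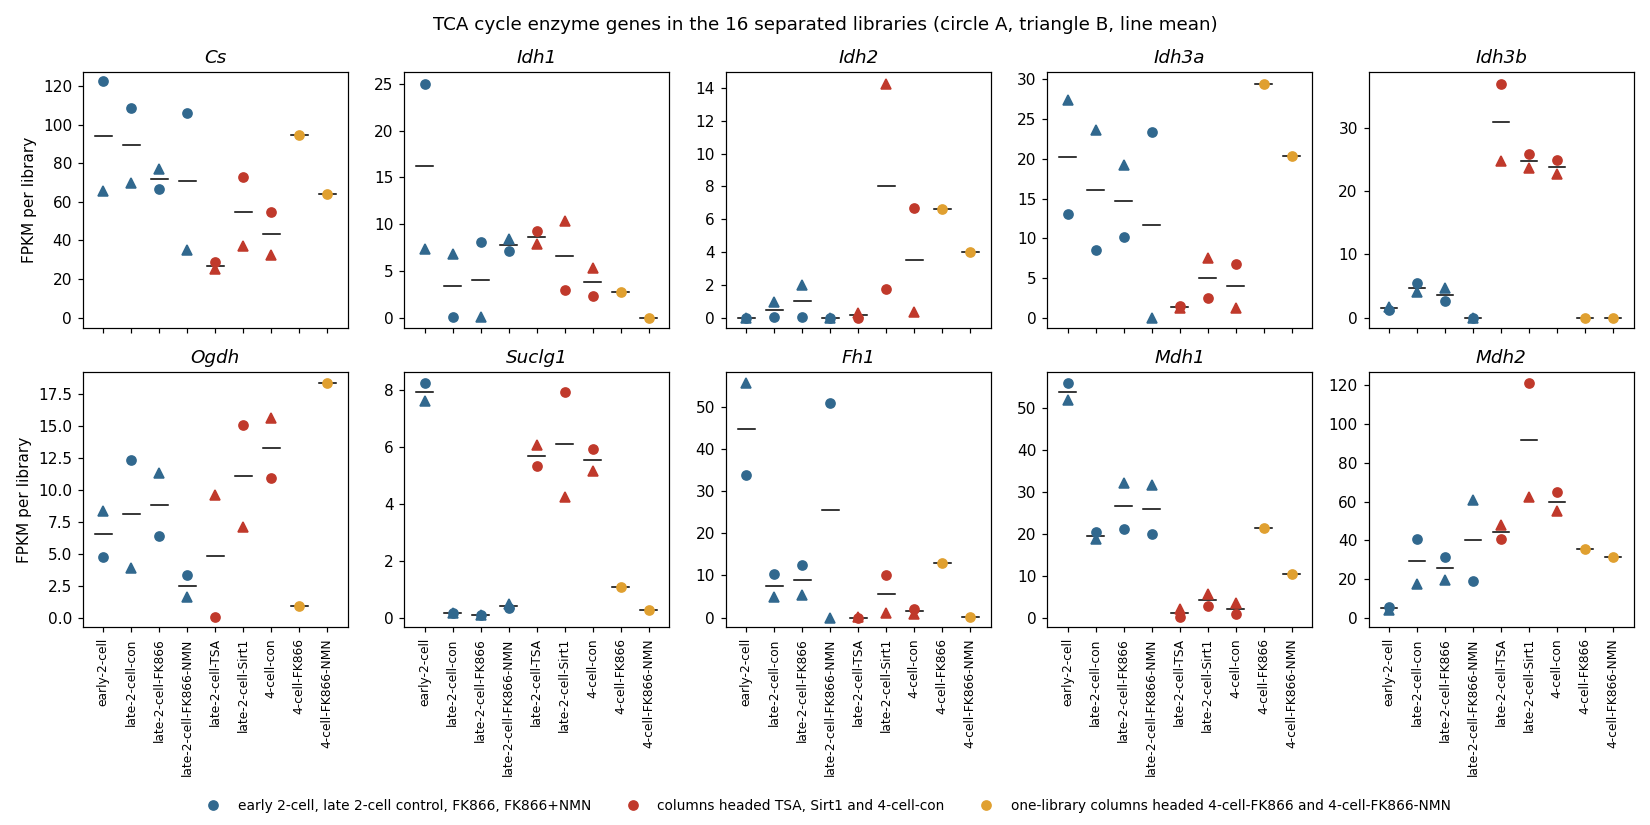
Level of each of the 10 genes in FPKM per library (linear axes, 1 panel per gene), by column header, with circles for library A, triangles for library B and a line at the column mean. Idh3b and Suclg1 are high in the 3 red columns, headed TSA, Sirt1 and 4-cell-con, where Mdh1 lies at 0.0548 to 5.57 FPKM.

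To ask how the enzymes changed over the second embryonic cell cycle, late 2-cell controls were compared with early 2-cell embryos. Suclg1 fell and Mdh2 rose. On the scale of log2(FPKM + 1), limma fitted to all 16 separated libraries gave a change of -2.94 ± 0.47 (SE) for Suclg1 (adjusted p = 0.0025) and 2.26 ± 0.61 for Mdh2 (adjusted p = 0.0344). The Mdh2 call was lost without library A of the controls, at 1.66 with limma adjusted p = 0.186, and without either early 2-cell library, at adjusted p = 0.0991 and 0.166. Between columns, 2 members were more than 2-fold higher (Idh3b, by 1.19, and Mdh2, by 2.37 on the log2 scale) and 4 more than 2-fold lower (Idh1, Suclg1, Fh1 and Mdh1, at -1.96, -2.94, -2.41 and -1.42), with 63.9% of the 9514 genes tested past 2-fold in either direction and 14.9% of 11734 genes past the limma test. The median over the members was -0.20, beside -0.00 over all genes tested. The share of members past 2-fold was therefore near that of all genes. Libraries of both groups held 3 embryos each. FPKM is scaled to library size, so these are differences in relative level, and the amount of mRNA per embryo was not measured. No label says that the libraries of a group came from separate collections, so the p-values measure the spread between libraries, which may be technical.

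The question of NAD+ depletion was addressed with FK866 against control at the late 2-cell stage. Suclg1, with at most 5 reads in a library, did not reach 1 FPKM in either column and could not be compared. None of the 9 other members differed by more than 2-fold between columns, where 38.1% of 9022 genes did. For Idh1 this rested on 2 uneven columns, since its difference was 2.26 without control library B, 1.04 without FK866 library B and -2.08 without FK866 library A. The largest difference was that of Idh2, at 0.44 on the log2 scale, followed by Mdh1, at 0.42, and Cs, at -0.31. The Idh2 value came from few reads, 1 and 10 in controls and 1 and 42 with FK866. It was 0.92 with 0.1 added to the FPKM in place of 1. Over the members the median was 0.01, beside -0.06 over all genes. In limma 0 members passed and 0 had an unadjusted p under 0.05, and 47 genes or 0.401% passed in all. That last count was 0 with only the 2 groups fitted and 303 to 408 with 1 of the 4 libraries left out. The SE of a limma difference ran from 0.45 for Idh3b to 1.51 for Fh1, so that a 2-fold difference of a member was not detectable with 2 libraries a group.

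Idh3b was at 2.58 and 4.74 FPKM with FK866, and had no read in the 2 libraries with NMN added. With 3 reads per library as the floor, this level was at least 27.4-fold lower by counting error alone. The limma difference was -2.18 ± 0.45 (adjusted p = 0.0413), and the call was lost without library B of the FK866 column, at -1.84 (limma adjusted p = 0.0614). Against the controls Idh3b was at least 35.2-fold lower by counting error alone, with a limma difference of -2.50 ± 0.45 (adjusted p = 0.0188). With only the 2 groups in the fit the limma adjusted p was 0.672 against FK866 and 0.516 against control. More than 2-fold between columns were 1 member higher (Fh1, 1.42) and 3 lower (Idh2, -1.01, Idh3b, -2.22, and Ogdh, -1.50) against FK866, where 52.1% of 8605 genes were past 2-fold and 2.10% passed limma. The median over the members was -0.03 in both comparisons, beside -0.24 over all genes against FK866 and -0.35 against control. Against control Fh1 was higher, at 1.62, and Idh3b and Ogdh lower, at -2.51 and -1.38, with 57.2% of 8639 genes past 2-fold and 3.50% past limma. The Fh1 value came from library A alone, since without it the difference was -3.30 against FK866 and -3.10 against control. The 2 libraries of the FK866 with NMN column differed widely over all genes. Of 5084 genes with at least 100 reads in one of them, 1696 or 33.4% had at most 1 read in the other, as did 2 of 7 members (Idh3a and Fh1). The part of this unevenness in the Idh3b value was not tested, and its counts of 0 set no firm bound.

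**Figure D3:**
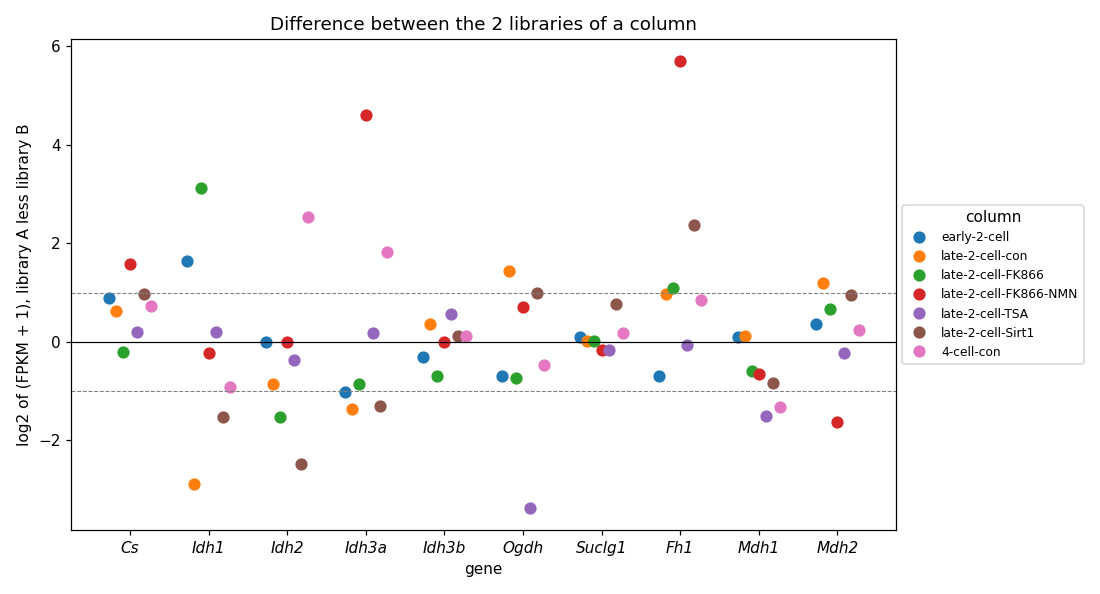
Difference in log2(FPKM + 1) between library A and library B of the same column for each gene, 1 point for each of the 7 columns with 2 libraries, with dashed lines at 2-fold. Suclg1 and Idh3b stay within 2-fold in all 7 columns, and Fh1 reaches 5.70 in the column with FK866 and NMN.

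The members differed in how well their 2 libraries matched. The SD between libraries, pooled over 7 columns on the log2 scale, was 0.22 for Suclg1 and 0.27 for Idh3b, 0.61 to 0.64 for Cs, Mdh1 and Mdh2, and 1.06 to 1.72 for Idh1, Idh2, Idh3a, Ogdh and Fh1. Columns near 0 FPKM lower the SD and the limma SE, since log2(FPKM + 1) hardly varies there. Suclg1 had at most 13 reads in each late 2-cell control, FK866, and FK866 with NMN library. Idh3b had no read in either library with FK866 and NMN. The calls of this report fell on Suclg1, Idh3b, Mdh1 and Mdh2, which are among the 5 genes with the smaller SDs. Over the 7 columns, members had at least 100 reads in a library in 50 cases, and in 4 of them the other library had at most 1 read (Idh1 with FK866, Idh3a and Fh1 with FK866 and NMN, Ogdh in the column headed late-2-cell-TSA). Over all genes this was so in 3144 of 32859 cases, or 9.57%.

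The column headed late-2-cell-TSA, whose values are those of 4-cell controls by the tables, was compared with late 2-cell controls. Read by its header the comparison asks for the effect of histone deacetylase inhibition, and read by the tables for the change from the 2-cell to the 4-cell stage. Idh3b and Suclg1 rose and Mdh1 fell. The limma differences were 2.47 ± 0.45 for Idh3b (adjusted p = 0.00843), 2.52 ± 0.47 for Suclg1 (adjusted p = 0.0086) and -3.53 ± 0.63 for Mdh1 (adjusted p = 0.00774). With only the 2 groups fitted Suclg1 lost its call (limma adjusted p = 0.0617). Between columns 3 members were more than 2-fold higher (Idh1, Idh3b and Suclg1) and 4 lower (Cs, Idh3a, Fh1 and Mdh1), with 64.5% of 8648 genes past 2-fold and 10.7% past limma. Over the members the median was -0.52, beside -0.44 over all genes tested. The 8 markers of the 2-cell stage, at 12.6 FPKM in sum against 468.9, moved with these values.

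The column headed late-2-cell-Sirt1, which holds 4-cell FK866 embryos by the tables, shared part of this pattern. In limma, Idh3b rose by 2.18 ± 0.45 (adjusted p = 0.0182) and Suclg1 by 2.56 ± 0.47 (adjusted p = 0.0108) over late 2-cell controls, and Mdh1 was at -2.06 ± 0.63 (adjusted p = 0.082). The Idh3b call was lost without control library B, at limma adjusted p = 0.0503, and without library A of the other column, at 0.0595. With only the 2 groups fitted both lost it (limma adjusted p = 0.0637 and 0.0872). Between columns 4 members were more than 2-fold higher (Idh2, Idh3b, Suclg1 and Mdh2) and 2 lower (Idh3a, -1.52, and Mdh1, -2.0), with 60.9% of 8779 genes past 2-fold and 8.11% past limma. The median over the members was 0.60, beside -0.28 over all genes.

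The column headed 4-cell-con, which holds 4-cell embryos with FK866 and NMN by the tables, differed from late 2-cell controls in the same 3 genes. In limma Idh3b rose by 2.13 ± 0.45 (adjusted p = 0.0249), Suclg1 rose by 2.49 ± 0.47 (adjusted p = 0.0144) and Mdh1 fell by 2.89 ± 0.63 (adjusted p = 0.0268). Mdh1 lost its call without control library A or B (limma adjusted p = 0.0842 and 0.0814) and without library A of the other column (0.124). Idh3b lost it without control library B (limma adjusted p = 0.0632) and without library A or B of the other column (0.0554 and 0.0646). Suclg1 lost it with only the 2 groups fitted (limma adjusted p = 0.0656). Between columns 4 members were more than 2-fold higher (Idh2, 1.60, Idh3b, 2.12, Suclg1, 2.49, and Mdh2, 1.02) and 4 lower (Cs, -1.02, Idh3a, -1.77, Fh1, -1.81, and Mdh1, -2.74), with 58.0% of 8868 genes past 2-fold and 6.41% past limma. Over the members the median was 0.40, beside -0.21 over all genes. These 3 comparisons share the 2 control libraries.

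Among these 3 columns themselves, which by the tables are the 4-cell control, FK866, and FK866 with NMN embryos, no member passed the limma test in either of the 2 comparisons made. FK866 against control by the tables had 7 members more than 2-fold higher (Cs, Idh2, Idh3a, Ogdh, Fh1, Mdh1 and Mdh2) and 0 lower, with 34.6% of 7420 genes past 2-fold in either direction. Cs, Mdh2 and Ogdh were only just past 2-fold, at 1.01, 1.04 and 1.05 on the log2 scale. For Ogdh the libraries overlapped, and the control column by the tables had 1 read in library A and 341 in B. In the same control column Fh1 had 0 and 1 reads, Idh2 had 0 and 5, and Mdh1 had 1 and 35. Idh2 and Fh1 were uneven in the FK866 column by the tables, at 1.74 and 14.3 FPKM and at 10.0 and 1.12. In limma 0 of the 10 passed, 2 had an unadjusted p under 0.05, and 0.102% of 11734 genes passed. Mdh1 was at 1.47 ± 0.63 and Idh2 at 2.51 ± 0.98 (limma adjusted p = 0.853 and 0.746). The median over the members was 1.05, beside 0.10 over all genes tested, and Suclg1 and Idh3b were at 0.09 and -0.31 between columns. With NMN added, by the tables, 0 members were more than 2-fold higher and 1 lower (Fh1, at -1.42), with 26.3% of 7754 genes past 2-fold and 0.128% past limma, and a median over the members of -0.47 beside 0.02. None of the 10 passed limma and 0 had an unadjusted p under 0.05.

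The 1-library columns were compared in both readings. They have no replicate, so each limma SE and p here assumes that the lone library varies like the libraries of the other groups, and none of these differences was checked within its own group. The fold bounds below allow for counting error only. In the columns with 2 libraries, a gene with at least 100 reads in one library had at most 1 in the other in 9.57% of cases. A lone count of 0 therefore sets no firm bound. By its header, the 4-cell-FK866 column is set against the 4-cell-con column. Idh3b was at least 127-fold lower by counting error alone, with a limma difference of -4.63 ± 0.55, while Mdh1 was at 3.01 ± 0.78. Without library A headed 4-cell-con the Mdh1 difference was 2.35. Between columns 4 members were more than 2-fold higher (Cs, Idh3a, Fh1 and Mdh1) and 3 lower (Idh3b, Ogdh and Suclg1), with 74.7% of 9368 genes past 2-fold and 20.1% past limma, and a median over the members of 0.19 beside 0.42 over all genes. By the tables the same column holds late 2-cell TSA embryos and is set against late 2-cell controls. Idh3b was then at least 25.2-fold lower by counting error alone, with a limma difference of -2.50 ± 0.55, and Mdh1 was at 0.12 ± 0.78. In that reading 1 member was more than 2-fold higher (Idh2, 2.35) and 2 lower (Idh3b, -2.51, and Ogdh, -2.23), with 59.8% of 9420 genes past 2-fold and 8.56% past limma, and a median over the members of 0.20 beside 0.07. Idh3b thus lay below its comparison group in both readings of this column, and in the column headed TSA it lay above the controls.

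The column headed 4-cell-FK866-NMN, Sirt1 knockdown by the tables, had 1 member more than 2-fold higher (Ogdh, 3.32) and 2 lower (Idh1, -1.92, and Fh1, -3.58) against the column headed 4-cell-FK866, with 59.7% of 8929 genes past 2-fold. With 1 library on each side no test was made. Over the members the median was -0.58, beside -0.29 over all genes. By the tables it is set against late 2-cell controls, where 2 members were more than 2-fold higher (Idh2, 1.75, and Ogdh, 1.08) and 3 lower (Idh1, -2.14, Idh3b, -2.51, and Fh1, -2.88), with 44.5% of 8622 genes past 2-fold and 0.989% past limma. There the medians were -0.19 and -0.21. In this second comparison 0 members passed limma and 1 had an unadjusted p under 0.05, Idh3b, at -2.50 ± 0.55 (limma adjusted p = 0.0823).

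**Figure D4:**
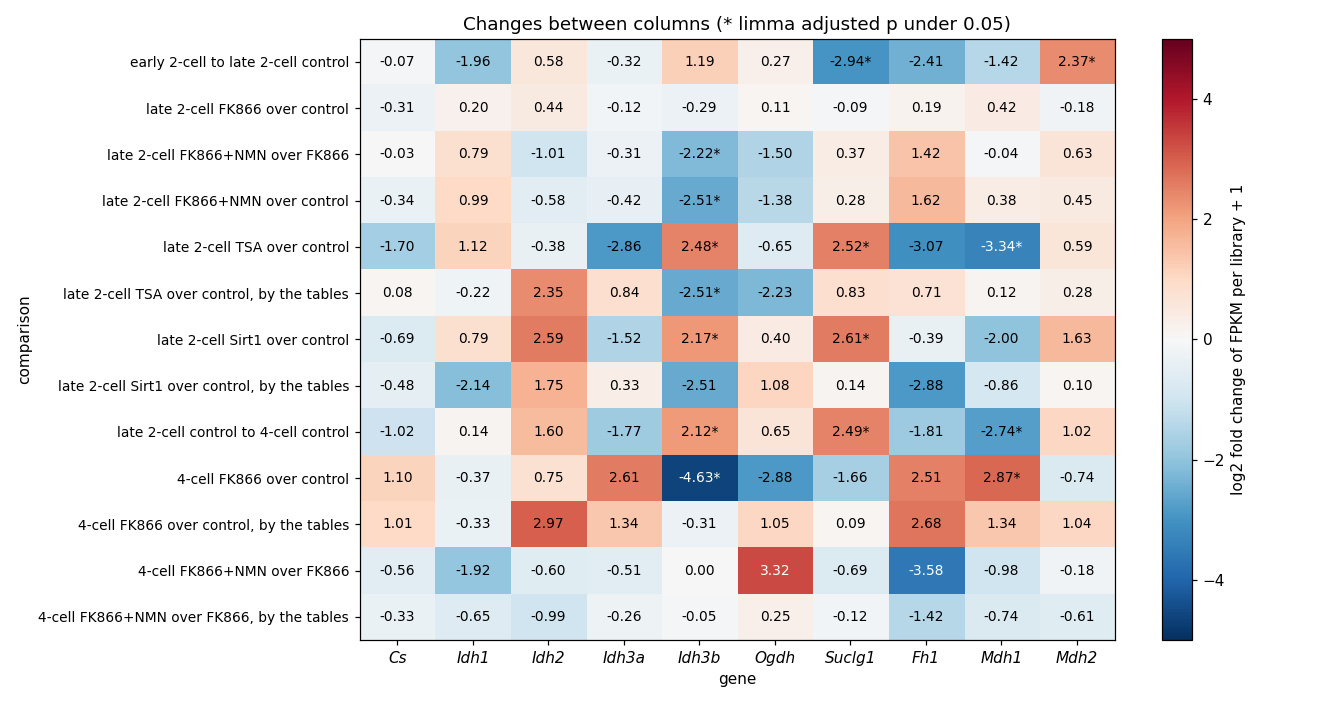
Log2 fold change of FPKM per library + 1 between columns for each gene and comparison, in color and as numbers, with an asterisk where limma on the separated libraries gave an adjusted p under 0.05. The FK866 row at the late 2-cell stage runs from -0.31 to 0.44, and Idh3b runs from -4.63 to 2.48 over the rows.

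Of 40 further genes of the cycle, of pyruvate entry and of related transport, 19 were measured. Early to late 2-cell, 2 of 18 tested rose in limma, beside 14.9% of all genes called: Pdp2, a pyruvate dehydrogenase phosphatase, from 2.52 and 1.74 to 23.5 and 18.7 FPKM, and Mpc2, a subunit of the mitochondrial pyruvate carrier, from 3.69 and 5.66 to 20.3 and 28.5. The median column difference over the 19 was -0.78. With FK866 at the late 2-cell stage, and with NMN added to it, 0 of 18 passed in limma, beside 0.401% and 2.10% of all genes, and of 18 past the filter 5 were more than 2-fold higher and 1 lower with FK866, beside 38.1% of all genes past 2-fold. In each of the columns headed late-2-cell-TSA, late-2-cell-Sirt1 and 4-cell-con, Me1, the cytosolic malic enzyme, fell against late 2-cell controls, from 67.0 and 91.8 FPKM to 7.62 and 5.77, 8.76 and 11.1, and 16.04 and 4.76. The limma differences were -3.38 ± 0.47, -2.87 ± 0.47 and -3.00 ± 0.47 (adjusted p = 0.0026, 0.00754 and 0.00842). Me1 was highest in early 2-cell embryos, at 247.2 and 195.4, and lowest in the column headed late-2-cell-TSA. The column means of Mdh1, Fh1, Sdhc and Dlat were highest and lowest in the same columns, so this order was not particular to Me1. By the tables, Pdp2 was at 2.10 FPKM in the lone library of TSA embryos, a limma difference of -2.82 ± 0.57 under the assumption above (adjusted p = 0.0123), and 0 of 18 passed for the knockdown, for FK866 at the 4-cell stage or for NMN added there. Read by headers, the 4-cell-FK866 column against that headed 4-cell-con gave 3 of 18 higher (Aco1, Pdp1 and Me1) and 2 lower (Sdhb and Pdp2) in limma under that assumption, beside 20.1% of all genes called.

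The mean of the 10 members on the log2(FPKM + 1) scale lay between 2.61 and 3.72 over the 9 columns. The genes whose columns were most alike to this mean, of 4785 with at least 5 FPKM on average, were 1700017B05Rik (Pearson r = 0.885), Pde8a (0.845), Gm40466 (0.830), Prkar2a (0.823) and Chd7 (0.786), as a description over 9 columns with no test.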

How the data were processed

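RNA-seq was performed by the authors on pooled mouse embryos. Reads were checked with FastQC, trimmed with Trim Galore, aligned to mm10 with HISAT2 and counted with featureCounts, and the deposited values are FPKM, 1 column per group, with 15747 complete rows that cover chromosomes 1 to part of 11. Strandedness of the counting is not given in the sources used here. Tables of the authors' own comparisons hold fold changes and directions and were used only to tell which column is which group.

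Values were multiplied by GENCODE M21 exon lengths and solved for whole reads in 16 libraries. For 176 genes, Mdh1 among them, the exon length was taken from the values, a choice made after the data were seen. Column fold changes used log2(FPKM per library + 1) over genes with at least 1 FPKM in either column, and members were named past 2-fold with no p-value. Libraries were tested with limma 3.58.1 (trend, all 9 groups, 11734 genes, 7 residual degrees of freedom, Benjamini-Hochberg adjustment, threshold 0.05) in R 4.3.3. Both steps were tested on simulated data. The simulation for limma gave all genes a common spread, smaller than that of Idh1, Idh2, Idh3a, Ogdh and Fh1. It also left out genes read in only 1 library of a group, so it does not show how limma performs for these. Named were all 10 members, the listed related genes past a threshold, Sirt1 and the 5 genes most alike. Members, lists and markers were chosen with earlier results of these data known.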

Additional observations from a re-analysis of the deposited data

Results flagged for a closer look

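The difference of the FK866 effect between stages was taken for each member in the limma fit, as the effect in 4-cell embryos less that in late 2-cell embryos. For Idh3b it was -4.31 ± 0.72 on the log2 scale when columns were read by their headers. That value rests on the lone library headed 4-cell-FK866, which is assumed to vary like the other groups. With no replicate of that library, no call of a difference between stages was made. It had no Idh3b read, against 467 and 361 reads in the column headed 4-cell-con. Read by the tables of the paper, the same difference was 0.04 ± 0.64 (limma adjusted p = 1). For the 9 other members it ran from -3.10 (Ogdh) to 2.91 (Idh3a) by headers, and by the tables they gave a limma adjusted p of at least 0.773. No group had 4 or more libraries, so no single library could be examined as an outlier within its group.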

How the results depend on the processing

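No paired analysis was possible because the columns carry no replicate number. Centred on the median of all genes, the median log2 difference over the 10 members became 0.21 for FK866 with NMN over FK866, 0.32 for FK866 with NMN over control, -0.07 for the column headed late-2-cell-TSA and 0.88 for that headed late-2-cell-Sirt1 over late 2-cell control, and 0.60 for that headed 4-cell-con over late 2-cell control. It became -0.23 for the column headed 4-cell-FK866 over that headed 4-cell-con, and -0.29 for that headed 4-cell-FK866-NMN over that headed 4-cell-FK866. A pseudocount of 0.1 gave -1.0 and one of 5 gave -0.26 for the column headed late-2-cell-TSA, and 5 gave 0.38 for that headed late-2-cell-Sirt1. Read by the tables, the medians were 0.20 for TSA, -0.19 for the knockdown, -0.52 for late 2-cell to 4-cell controls and 1.05 for 4-cell FK866. The members past limma numbered 3 for late 2-cell to 4-cell controls and 0 for 4-cell FK866, while TSA and the knockdown rest on a lone library each. In that reading, of the members past 2-fold by header, these changed sign: Cs (0.08), Idh1 (-0.22), Idh3a (0.84), Idh3b (-2.51), Fh1 (0.71) and Mdh1 (0.12) for TSA, Idh3a (0.33) and Idh3b (-2.51) for the knockdown, Idh2 (-0.38) for late 2-cell to 4-cell controls, and Ogdh (1.05) and Suclg1 (0.09) for 4-cell FK866. For FK866 with NMN over FK866, 0 members passed limma with a minimum of 5 FPKM, with quantile normalization, or with only the 2 groups fitted. Fits of only 2 groups also gave 0 for FK866 with NMN over control and for the column headed late-2-cell-Sirt1, where 1 and 2 had passed, and Suclg1 lost its call in all 3 comparisons of late 2-cell control with the columns headed TSA, Sirt1 and 4-cell-con. With quantile normalization, the column headed 4-cell-FK866 over that headed 4-cell-con had limma differences of -2.46 for Suclg1 and -3.59 for Ogdh, which rest on its lone library. With each library left out in turn, the medians ran from -0.54 to -0.09 for early to late 2-cell, -0.19 to 0.05 for FK866, -1.02 to 0.13 and -0.95 to 0.12 for FK866 with NMN over FK866 and over control, -1.09 to 0.01 and 0.45 to 0.73 for the columns headed late-2-cell-TSA and late-2-cell-Sirt1, 0.00 to 0.32 for that headed 4-cell-con, and 0.07 to 0.45 for that headed 4-cell-FK866 over that headed 4-cell-con. The numbers past limma ran from 1 to 2, 0 to 0, 0 to 1, 1 to 2, 3 to 3, 1 to 2, 1 to 2 and 1 to 2 in the same order. Without library A of the FK866 with NMN column, Fh1 was at -3.30 and -3.10 over FK866 and control, against 2.40 and 2.59 without library B, and Idh3a passed against control at -3.93 (limma adjusted p = 0.0493). Without library A headed 4-cell-con, Idh2 was at -0.16 over late 2-cell control, and at 2.37 without library B. The causes were not tested. Depth and 2 libraries a group limit the low genes Idh1 and Idh2 and the uneven genes Idh3a, Ogdh and Fh1. Over all genes, limma calls with a library left out ranged from 303 to 408 for FK866 (47 with all), 555 to 1264 and 539 to 1516 for FK866 with NMN over FK866 and over control (246 and 411), 709 to 1275 for the column headed late-2-cell-TSA (1261, lowest without its library A), 394 to 830 for that headed 4-cell-con (752, lowest without its library B), and in the reading by the tables from 315 to 407 for the knockdown (116), 94 to 166 for 4-cell FK866 (12) and 134 to 198 for NMN added to it (15). With only the 2 groups fitted they were 0 for the 3 late 2-cell FK866 and NMN comparisons and both 4-cell ones by the tables, and 587 for the column headed late-2-cell-Sirt1 (952). With a minimum of 5 FPKM they were 21 for FK866, 36 for the knockdown and 2 for NMN by the tables, and 37 for the last with no filter. Quantile normalization gave 24 for FK866, 163 for NMN over FK866 and 19 for 4-cell FK866 by the tables.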
